A study of Mus musculus with 24 samples.

Results

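Genes of fat storage and heat production, 36 in all, were followed in freshly sorted endothelial cells of the mouse aorta and leg muscle. They were chosen by gene name for their known roles, with no threshold on a measured value, but with earlier results of these data known. They comprise 6 genes for adipocyte secreted factors and lipid droplet proteins, 4 for transcription factors, 6 thermogenic genes, 3 for triglyceride breakdown, 9 for triglyceride assembly and 8 for glucose uptake and fatty acid synthesis. Of the 36 genes, 35 were matched by accession to at least 1 of 53 probes, out of 18539 gene symbols on the array, and Pck1 was not analysed here. Each gene was read on its brightest probe.

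White adipocytes keep triglyceride in a large droplet coated by perilipins and CIDE proteins, and they secrete adiponectin and adipsin, which makes these transcripts the usual marks of the cell type. Brown adipocytes carry in addition the uncoupling protein UCP1, and are held in that state by factors such as PRDM16 and PGC-1α. Endothelial cells take up and pass on fatty acids to the tissue around them. The aorta lies in perivascular fat, which in rodents resembles brown fat along the thoracic part, and the study freed the vessels of adherent fat before digestion.

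The study asked how endothelial cells of mice without galectin-3 respond to a high-fat diet (HFD). Male WT mice (C57BL/6J) and KO mice, which carry the Lgals3tm1Poi allele on a C57BL/6 background, began HFD or chow at 8 weeks of age and were kept on it for 8 weeks. Live CD105+/CD45- cells were sorted from digests of the aorta, from the root to the iliac bifurcation, or of the plantaris, gastrocnemius and biceps femoris, and amplified RNA was read on 1-colour Agilent mouse arrays. Each of the 8 groups of tissue, strain and diet had 3 arrays, 1 for each of 3 experiments. Each array stood for a pool of mice and not for an animal.

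On each array 59.5% to 75.7% of the 43379 non-control spots were well above background, and no probe of the 35 genes was saturated. Values are given as log2 of the processed signal over the 75th percentile of the array, so that 0 is the level of that percentile and a step of 1 is a doubling. A level therefore cannot be set against that of another gene. All 12 endothelial marker genes, among them Pecam1, Cdh5 and Eng, were well above background on all 24 arrays. Lgals3, the targeted gene, was well above background on 24 of 24 arrays, and in 11 of 12 pairs the KO label went with the higher level, by a median of 1.3. Whether its probe lies outside the deleted exons was not tested. Over 33 probes that separate the strains, with 0 for WT and 1 for KO, intermediate values were found on HFD in experiment 1, at 0.258 (labelled WT) and 0.329 (labelled KO) in aorta and at 0.315 and 0.471 in muscle. The other arrays labelled WT lay between -0.131 and 0.0705, and the others labelled KO between 0.908 and 1.08. Strains below are those of the labels, and results are also given without experiment 1.

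HFD against chow was compared first in the aorta, where 34 of the 35 genes were measured on every array of at least 1 group. Leptin (Lep) was well above background on 0 of 12 aortic arrays. Genes that mark the adipocyte were much lower on HFD in both strains: Adipoq, Cfd, Cidec and Plin1 were between 8.32-fold and 44.3-fold lower in WT and between 10.7-fold and 17.3-fold lower in KO. Dio2, the deiodinase that makes active thyroid hormone in brown fat, was higher by 3.43-fold in WT and 5.03-fold in KO, followed by Mest at 1.56-fold and 1.55-fold. None of the differences between HFD and chow passed the test adjusted over all probes in either strain. In these sorted pools, fewer cells of a type and less RNA per cell cannot be told apart.

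The secreted factors and droplet proteins held the largest differences. Adipoq encodes adiponectin, the insulin-sensitizing hormone of fat. Its level on the chow arrays of experiments 1, 2 and 3 was 2.07, 2.79 and 4.35 in WT, whereas KO had 5.48, 2.32 and 3.30. On HFD, WT had -4.39, -2.19 and -0.61, whereas KO had -1.41, 0.07 and 0.11. All 6 HFD arrays lay below all 6 chow arrays, and the lowest of all was WT HFD of experiment 1. The fitted difference was -5.47 ± 0.85 (SE, n = 3 pairs) in WT and -4.11 ± 0.85 in KO (limma, adjusted p = 0.221 and 0.282).

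Cfd encodes adipsin, a serine protease of the complement pathway that fat releases into the blood. It stood at 5.59, 5.64 and 5.91 on WT chow and at 0.34, 1.33 and 2.71 on WT HFD. In KO it stood at 6.70, 5.46 and 5.69 on chow and at 0.81, 2.72 and 2.23 on HFD. The chow arrays of WT lay close together, the HFD arrays were spread, and the diets did not overlap. The difference was -4.26 ± 0.66 in WT and -4.02 ± 0.66 in KO (limma, adjusted p = 0.221 and 0.231).

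Cidec encodes a protein that fuses lipid droplets. On chow, WT stood at 4.28, 4.88 and 5.6, and KO at 6.45, 4.87 and 4.89. On HFD, WT stood at 0.76, 1.60 and 1.97, and KO at 1.29, 2.09 and 2.19. The diets did not overlap, and the 3 WT ratios of -3.52, -3.28 and -3.62 lay close together (SD 0.18). The difference was -3.47 ± 0.50 in WT and -3.54 ± 0.50 in KO (limma, adjusted p = 0.202 and 0.198).

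Plin1 encodes perilipin 1, the coat of the adipocyte droplet that gates lipolysis. Its level was 0.42, 0.88 and 1.00 on WT chow, -2.16, -2.55 and -2.16 on WT HFD, 3.22, -0.39 and 1.02 on KO chow and -1.71, -2.30 and -2.39 on KO HFD. The HFD arrays were all near the same low level, and the chow arrays differed among themselves, most of all in KO. The difference was -3.06 ± 0.54 in WT and -3.42 ± 0.54 in KO (limma, adjusted p = 0.279 and 0.220). The fifth gene of this class measured, Plin4, which encodes another droplet coat protein, had smaller differences of -0.63 ± 0.57 and -0.94 ± 0.57, and its diets overlapped in both strains.

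**Figure D1:**
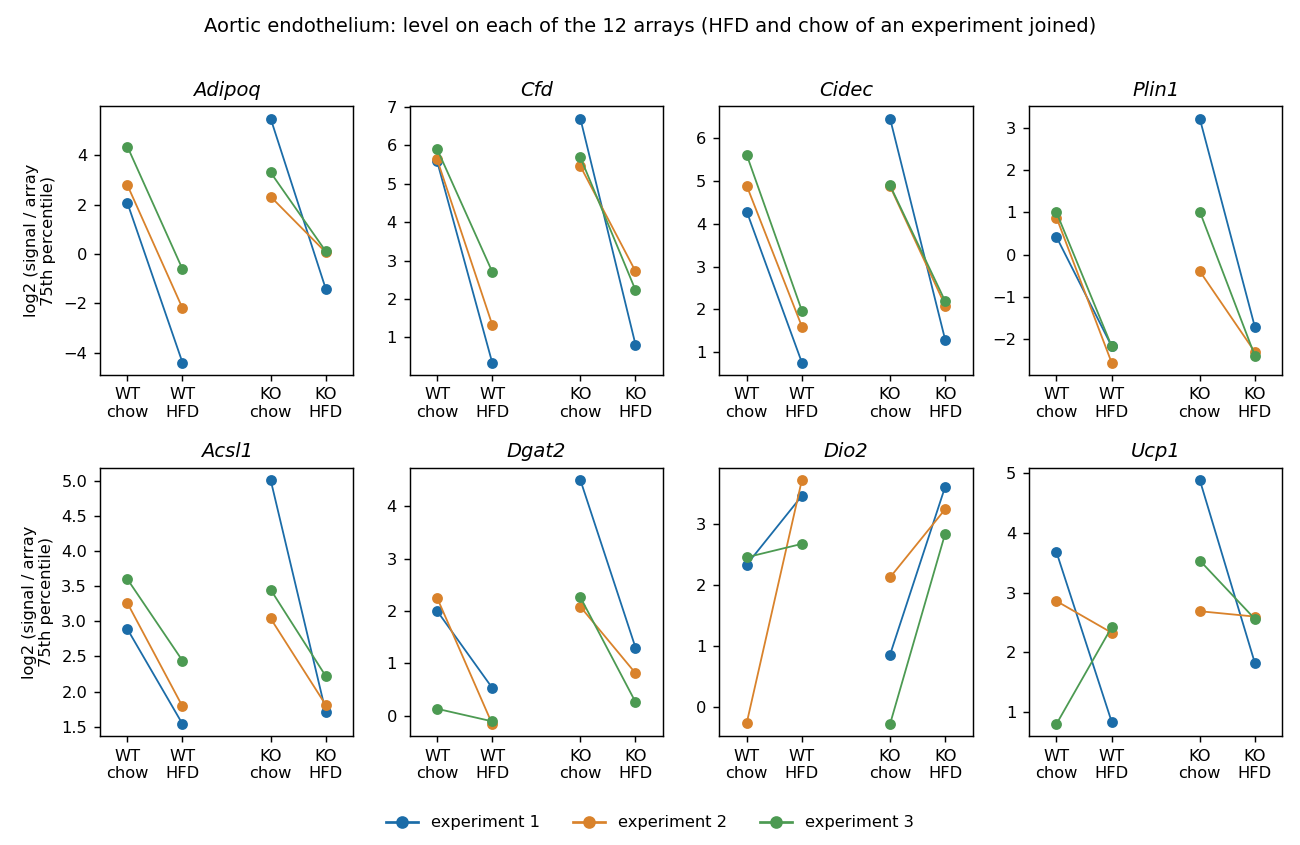
Level (log2 of signal over the array's 75th percentile, with an axis of its own for each gene) of 8 genes on each of the 12 aortic arrays, with lines that join both diets of an experiment within a strain. The 6 HFD arrays of Adipoq, Cfd, Cidec, Plin1 and Acsl1 sit below all 6 chow arrays, those of Dio2 sit above them, and those of Ucp1 overlap.

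Over both strains together, these 4 genes were lower on HFD by 4.79 ± 0.60 (Adipoq), 4.14 ± 0.46 (Cfd), 3.51 ± 0.35 (Cidec) and 3.24 ± 0.38 (Plin1) on the log2 scale. The limma p adjusted over all 25865 probes was 0.0793, 0.0648, 0.0512 and 0.0705, against 0.0232% of all probes called lower and 0.00773% called higher. All 4 were called without the replicate block, with adjusted p of 0.0318, 0.00528, 0.00528 and 0.0318, and over the alternatives run the p of the 4 lay between 0.00528 and 0.329. Of the 34 genes, 0 were called by limma on their brightest probe, while 16 had an unadjusted p under 0.05 with a lower level and 1 (Dio2) with a higher one. Over all probes these shares were 6.68% and 8.45%. Without experiment 1, 9 were lower and 1 higher at that threshold, and the share over all probes was not counted for that fit. Without overlap between the 6 HFD and the 6 chow arrays, 6 genes were lower (Adipoq, Cfd, Cidec, Plin1, Slc2a4 and Acsl1) and Dio2 was higher, against 0.545% and 0.607% of all probes.

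The study required a log2 ratio (HFD over chow) past 1 with the same sign in each of the 3 experiments. In WT aorta 5 of 34 genes were below -1 in every experiment (Adipoq, Cfd, Cidec, Plin1 and Acsl1), against 0.858% of all probes, and 0 were above 1, against 0.735%. In KO aorta 6 were below -1, the same 5 and Dgat2, against 1.12%, and Dio2 was above 1, against 1.81%. Between the 3 HFD and the 3 chow arrays of a strain, 10 genes in WT and 15 in KO were lower without overlap, against 3.61% and 6.87% of all probes, and Dio2 was higher in each, against 3.62% and 7.14%. Without experiment 1, 7 genes in WT and 6 in KO were below -1 in both remaining experiments, against 2.65% and 3.92% of all probes. The lower levels of Adipoq, Cfd, Cidec and Plin1 were thus seen in experiments 2 and 3 as well. On the criterion of the limma test, 0 genes passed in either strain, and the unadjusted p was under 0.05 for 6 lower and 0 higher genes in WT (2.68% and 3.09% of all probes) and for 13 lower and 1 higher in KO (5.01% and 6.24%). Without experiment 1, WT had 6 lower and 0 higher, and KO 5 lower and 0 higher. For these fits and for the next test, the share over all probes at the unadjusted threshold was not counted. These counts therefore cannot be set against the rate of the array. The methods' t-test had 7 lower in WT and 2 lower and 1 higher in KO at the same unadjusted threshold, and 0 after Benjamini-Hochberg adjustment.

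The 4 genes with the largest differences are shown with the 250 bases before each RefSeq start on GRCm38.p6, since they were lower together in both strains. These promoter stretches are written 5′ to 3′ on the strand of the gene. Capitals mark matches on either strand to CCAAT (the CCAAT box) or to TTGCNNAA (a C/EBP motif, the family that includes the adipocyte factor C/EBPα).
Adipoq (chr16:23146286-23146535, plus strand): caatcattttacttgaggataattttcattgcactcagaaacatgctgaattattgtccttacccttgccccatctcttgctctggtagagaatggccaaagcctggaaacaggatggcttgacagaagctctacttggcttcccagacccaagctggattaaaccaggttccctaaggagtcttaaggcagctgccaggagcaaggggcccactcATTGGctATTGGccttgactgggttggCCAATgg
Cfd (chr10:79890603-79890852, plus strand): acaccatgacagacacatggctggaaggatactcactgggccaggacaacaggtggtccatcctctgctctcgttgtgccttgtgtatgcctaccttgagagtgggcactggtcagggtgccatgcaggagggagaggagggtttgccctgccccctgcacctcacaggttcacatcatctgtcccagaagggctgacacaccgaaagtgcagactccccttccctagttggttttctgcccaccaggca
Cidec (chr6:113435761-113436010, minus strand): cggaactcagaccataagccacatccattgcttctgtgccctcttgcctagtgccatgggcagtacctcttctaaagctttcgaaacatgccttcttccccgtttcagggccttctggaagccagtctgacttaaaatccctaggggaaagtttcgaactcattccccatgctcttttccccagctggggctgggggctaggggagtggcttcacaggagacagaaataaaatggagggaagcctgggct
Cidec (chr6:113434765-113435014, minus strand): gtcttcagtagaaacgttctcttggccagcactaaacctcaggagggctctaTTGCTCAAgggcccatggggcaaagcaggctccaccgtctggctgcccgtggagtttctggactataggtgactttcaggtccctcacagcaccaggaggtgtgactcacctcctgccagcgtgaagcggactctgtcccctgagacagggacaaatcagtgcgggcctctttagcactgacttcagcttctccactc
Plin1 (chr7:79732777-79733026, minus strand): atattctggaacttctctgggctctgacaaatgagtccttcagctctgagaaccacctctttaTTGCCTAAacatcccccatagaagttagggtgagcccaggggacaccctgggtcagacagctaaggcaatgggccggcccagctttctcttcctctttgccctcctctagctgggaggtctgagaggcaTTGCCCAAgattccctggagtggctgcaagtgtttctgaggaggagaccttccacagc

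The Adipoq stretch held 3 CCAAT matches close to the start, the second Cidec start held 1 TTGCNNAA match, and Plin1 held 2. The Cfd stretch and the first Cidec start held neither motif. TTGCNNAA was found for 6 of the 29 genes with a promoter entry, against 10.8% of all 27025 genes, and CCAAT for 12 of 29, against 37.5%. The half-site of nuclear receptors, AGGTCA, was found for 6 of 29, against 15.8%. CACGTG (the E-box) was found for 2 of 29, against 6.86%, and TATAAA (the TATA box) for 3 of 29, against 14.3%. All motifs were searched on both strands, and the matches describe letters in these windows alone.

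Among the transcription factors, differences in aorta were smaller. Pparg, the master regulator of adipocyte differentiation and also a gene of endothelial cells, stood at 3.87, 4.79 and 3.66 on WT chow and at 2.67, 3.00 and 3.96 on WT HFD. On KO chow it stood at 4.92, 4.89 and 5.06 and on KO HFD at 2.52, 3.73 and 4.22. The diets overlapped in WT and not in KO, and over both strains the difference was -1.19 ± 0.34 (limma, adjusted p = 0.233). Mlxipl, which encodes the glucose-sensing factor ChREBP, was lower by 1.17 ± 0.45 (adjusted p = 0.304). Cebpa and Srebf1, the factors C/EBPα and SREBP-1, differed by -0.23 ± 0.27 and -0.01 ± 0.18.

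Of the thermogenic genes, Dio2 and Cidea stood apart in opposite directions. Dio2 stood at 2.34, -0.26 and 2.46 on WT chow and at 3.47, 3.73 and 2.68 on WT HFD. In KO it was 0.86, 2.13 and -0.28 on chow and 3.62, 3.25 and 2.85 on HFD. All 6 HFD arrays lay above all 6 chow arrays, although in WT experiment 3 the step was 0.22. Over both strains the difference was 2.05 ± 0.53 (limma, unadjusted p = 0.00647, adjusted p = 0.206).

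Cidea, a droplet protein of brown fat, was 3.72, 4.03 and 1.61 on WT chow and 0.31, 1.58 and 1.77 on WT HFD, and 6.00, 3.03 and 4.36 on KO chow and 1.47, 2.29 and 1.81 on KO HFD. It was lower in 5 of 6 pairs, with WT experiment 3 as the exception at a ratio of 0.16, and by 2.25 ± 0.61 over both strains (adjusted p = 0.221). Ucp1, which lets mitochondria burn fuel for heat, had ratios of -2.84, -0.53 and 1.62 in WT and -3.07, -0.09 and -0.98 in KO. Its direction thus turned between WT experiments, and over both strains it differed by -0.98 ± 0.63 (adjusted p = 0.490). Without experiment 1 the fitted differences of Ucp1 and Elovl3 were above 0. Elovl3, an elongase of brown fat, differed by -1.28 ± 0.96, in a fit without KO chow of experiment 3, where its spot was marked as an outlier. Ppargc1a and Prdm16, regulators of mitochondrial biogenesis and of brown fat identity, differed by -0.41 ± 0.30 and -0.35 ± 0.26.

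Among the genes of triglyceride assembly, 2 passed the criterion of the 3 experiments. Acsl1, which activates fatty acids by joining them to coenzyme A, was 2.89, 3.26 and 3.6 on WT chow and 1.54, 1.79 and 2.44 on WT HFD, and 5.01, 3.04 and 3.45 on KO chow and 1.71, 1.81 and 2.22 on KO HFD. The diets did not overlap, and the difference was -1.33 ± 0.44 in WT and -1.92 ± 0.44 in KO (limma, adjusted p = 0.736 and 0.312). Dgat2, which adds the last acyl chain to triglyceride, was 2.00, 2.25 and 0.13 on WT chow and 0.53, -0.16 and -0.11 on WT HFD, and 4.5, 2.08 and 2.26 on KO chow and 1.30, 0.81 and 0.26 on KO HFD. It was lower in all 6 pairs, by little in WT experiment 3, and by 1.37 ± 0.51 in WT and 2.16 ± 0.51 in KO (adjusted p = 0.821 and 0.313). Its other probes, both dimmer, had larger differences, -3.48 and -2.82 in WT and -3.52 and -3.17 in KO. Over both strains they differed by -3.50 and -2.99 (limma, adjusted p = 0.03 and 0.0543), so that the first of them was called.

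The rest of this class ranged over both strains from -0.92 ± 0.69 for Gpd1, which makes glycerol 3-phosphate, to 0.64 ± 0.27 for Mest, a gene linked to fat expansion. Bscl2, which encodes seipin, differed by 0.04 ± 0.25. Of the genes of breakdown, Pnpla2, the adipose triglyceride lipase, differed by -1.02 ± 0.32, Lipe, the hormone-sensitive lipase, by -0.94 ± 0.40, and Pnpla3, dim on 3 of 12 arrays, by -0.33 ± 0.81.

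All 8 genes of glucose uptake and fatty acid synthesis had a fitted difference below 0 over both strains, with a median of -0.77, and 48.9% of all probes were below 0. In WT alone 5 of 8 were below 0 (median -0.35), and without experiment 1, over both strains, 5 of 8 (median -0.32), with Acaca, Elovl6 and Me1 above 0. Slc2a4, the insulin-responsive glucose transporter GLUT4, was 0.03, 0.86 and 0.38 on WT chow and -0.59, -1.12 and -0.20 on WT HFD, and 2.62, 0.65 and 1.65 on KO chow and -1.38, -0.08 and -0.19 on KO HFD. The diets did not overlap, and the difference was -1.62 ± 0.44 over both strains (limma, adjusted p = 0.221). Scd1, the desaturase that makes oleate, differed by -1.41 ± 0.37, and Thrsp, the lipogenic protein Spot 14, by -1.72 ± 0.60. Fasn, the fatty acid synthase, differed by -0.99 ± 0.36, and Acaca, Acly and Me1, which supply its malonyl-CoA, acetyl-CoA and NADPH, by -0.21 ± 0.34, -0.29 ± 0.22 and -0.07 ± 0.31. None of these was called.

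**Figure D2:**
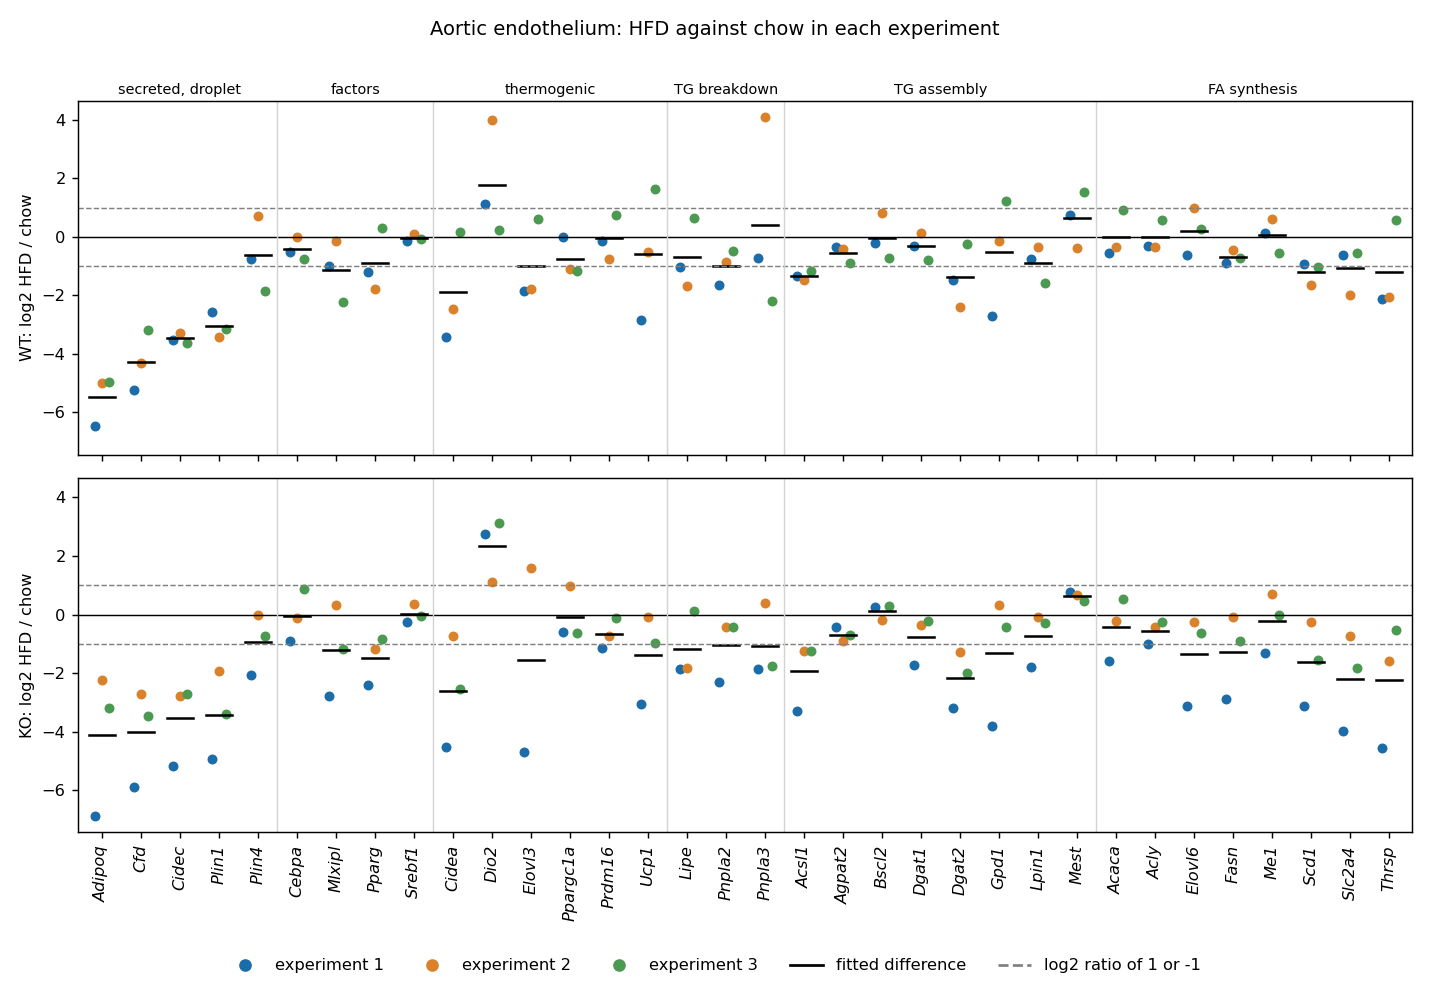
Log2 ratio of HFD to chow in aorta in each experiment (points) and the fitted difference (black lines) for the measured genes, ordered by role, with WT above and KO below. The points of Adipoq, Cfd, Cidec and Plin1 are below -1 in every experiment of both strains, and most of the lowest KO points belong to experiment 1.

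The median over the 34 genes was -0.69 in WT, against 0.03 over all probes, and -1.20 in KO, against -0.01. Experiments 1, 2 and 3 had medians of -0.84, -0.48 and -0.57 in WT, and KO had -2.36, -0.24 and -0.64. The large KO value rests on experiment 1, where the KO chow array was the highest of the 12 aortic arrays for 24 of 34 genes. That array also had the highest summed level of the erythroid markers, 4 of which had a probe, among the aortic arrays (5.63, others up to 3.72), and its part in the result was not tested. Without experiment 1 the medians were -0.58 in WT and -0.43 in KO, against 0.07 over all probes in each. The 12 endothelial markers differed as well, by a median of -0.49 in WT and -0.95 in KO, with 0 and 5 of 12 lower at an unadjusted p under 0.05. Their summed level was 7.70 to 8.63 on WT chow, 7.13 to 8.24 on WT HFD, 8.32 to 8.74 on KO chow and 7.19 to 8.13 on KO HFD. Of the other lists, 8 macrophage markers had a median of -1.4 in WT (2 lower and 1 higher at an unadjusted p under 0.05) and of 0.08 in KO (1 and 1), and 12 fibroblast and preadipocyte markers had 0.19 (0 past it) and 0.54 (1 higher). Over both strains Col1a1, Lum and Pdgfra of the latter were higher at that threshold, and none of these markers was called. The medians in WT and KO were 0.3 and 0.16 for 8 smooth muscle markers, -0.1 and -0.37 for 9 muscle fibre markers and 0.48 and -1.32 for 3 erythroid markers. The part of these cells in the result was not tested.

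Whether KO responded differently from WT was read as the difference between their ratios. In aorta 0 of 34 genes were called by limma, and 0 had an unadjusted p under 0.05 in either direction, where 1.31% of all probes did in each. The median difference of the 34 genes, KO response minus WT response, was -0.43, against -0.02 over all probes, and 0.02 without experiment 1. For Adipoq it was 1.36 ± 1.21 and for Slc2a4 -1.13 ± 0.88. On chow the levels of KO minus WT had a median of 0.56 over the 34 genes, which was 0 without experiment 1. Thrsp was highest (1.94, unadjusted p = 0.0277), followed by Dgat2 (1.49) and Elovl6 (1.46). Only Thrsp and Slc2a4 (1.22, unadjusted p = 0.0403), both with a limma adjusted p of 1, had an unadjusted p under 0.05, against 2.33% of all probes higher and 2.08% lower, and 0 had one on HFD, against 0.518% and 0.63%. Without experiment 1, 0 of the 34 were higher and 1 was lower on chow at that threshold, so that neither of these 2 genes passed it, with no share over all probes counted. With the replicate block 3 of the 34 were higher in KO on chow at the unadjusted threshold, with no share over all probes counted. After adjustment 0 were called on either diet, against 0.00773% higher and 0.00387% lower over all probes on chow. Of the 34, Pparg and Thrsp did not overlap between the strains on chow, both higher in KO, against 3.42% of all probes (lower 2.76%), and 0 were apart on HFD, against 2.1% in each direction.

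In muscle endothelium, 31 of the 35 genes were measured, and no member of the set passed the adjusted test on diet. Lep, Ucp1, Elovl3 and Pnpla3 were well above background on 1, 2, 0 and 1 of 12 arrays and were not tested. The median over the 31 genes was 0.06 in WT, against -0.02 over all probes, and -0.28 in KO, against 0. Of the genes that were much lower in aorta, Cfd was lower in muscle in every pair of both strains, as given below. Adipoq, Cidec and Plin1 held no common direction in WT muscle, with differences of 0.24 ± 0.41, -0.23 ± 0.53 and 0.42 ± 0.97. In KO muscle they were -1.17 ± 0.41, -1.44 ± 0.53 and -1.02 ± 0.97. Adipoq stood at -1.12, -1.53 and -2.22 on WT chow and -0.05, -1.95 and -2.14 on WT HFD, and at 1.34, -1.33 and 0.24 on KO chow and 0.09, -1.57 and -1.79 on KO HFD. The diets overlapped in both strains.

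By the criterion of 3 experiments, Dio2 was above 1 and Ppargc1a below -1 in WT muscle, against 0.872% and 0.954% of all probes, and Cfd was below -1 in KO muscle, against 0.53%, where 0 were above 1, against 0.459%. Cfd stood at 2.94, 2.76 and 2.26 on WT chow and 2.49, 0.71 and -0.61 on WT HFD, and at 5.62, 2.83 and 4.86 on KO chow and 2.37, 0.98 and -1.03 on KO HFD. It was lower on HFD in all 6 pairs, by -0.45 in WT experiment 1 and by -5.89 in KO experiment 3. The difference was -1.78 ± 0.77 in WT and -3.66 ± 0.77 in KO (limma, adjusted p = 0.426 and 0.370), and -2.72 ± 0.54 over both (adjusted p = 0.109). With the normexp background this p was 0.0449, and over the alternatives run it lay between 0.0449 and 0.355.

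Dio2 stood at -3.45, -4.31 and -5.30 on WT chow and -1.59, -2.66 and -2.71 on WT HFD, and at -2.45, -6.34 and -3.01 on KO chow and -1.38, -2.82 and -2.17 on KO HFD. It was higher on HFD in all 6 pairs, as in aorta, although WT chow of experiment 3 was not well above background and KO overlapped between diets. The difference was 2.04 ± 0.52 in WT and 1.81 ± 0.52 in KO, and 1.92 ± 0.37 over both (limma, adjusted p = 0.105). With the normexp background its p was 0.0369, and over the alternatives run it lay between 0.0369 and 0.340. Ppargc1a had ratios of -1.14, -4.90 and -1.20 in WT and -0.35, -2.40 and 0.39 in KO. Its lowest array, WT HFD of experiment 2 at -8.49, was not well above background, and without experiment 2 the difference in WT was -1.17 in place of -2.42. The other probe of Ppargc1a differed by -0.26 in WT and by 1.35 in KO (limma, unadjusted p = 0.00501, adjusted p = 0.402). Over both strains that probe differed by 0.54, against -1.60 on the brightest.

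Lipin 1 (Lpin1), the phosphatidate phosphatase of triglyceride assembly, was 1.18, 0.69 and 0.90 on WT chow and 0.32, -1.14 and 0.55 on WT HFD, and 0.97, 0.66 and 1.17 on KO chow and 0.43, -0.64 and 0.49 on KO HFD. It was the only 1 of the 31 genes whose 6 HFD arrays lay below its 6 chow arrays, against 0.763% of all probes (0 above, against 0.993%), by 0.93 ± 0.23 (limma, adjusted p = 0.147). In WT alone, Acaca, Acly, Lipe and Lpin1 were lower and Dio2 and Acsl1 higher without overlap, against 7.8% and 6.46% of all probes. In KO alone, Cfd and Lpin1 were lower without overlap, against 4.94%, and 0 were higher, against 3.98%. Acsl1 was 2.73, 2.43 and 2.58 on WT chow and 2.94, 3.19 and 3.12 on WT HFD, but its other probes in WT muscle differed by -0.07 and -0.05, against 0.50 here. The other tested probes of Acaca in WT muscle differed by -0.48 and 0.02, against -1.02 on the brightest.

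**Figure D3:**
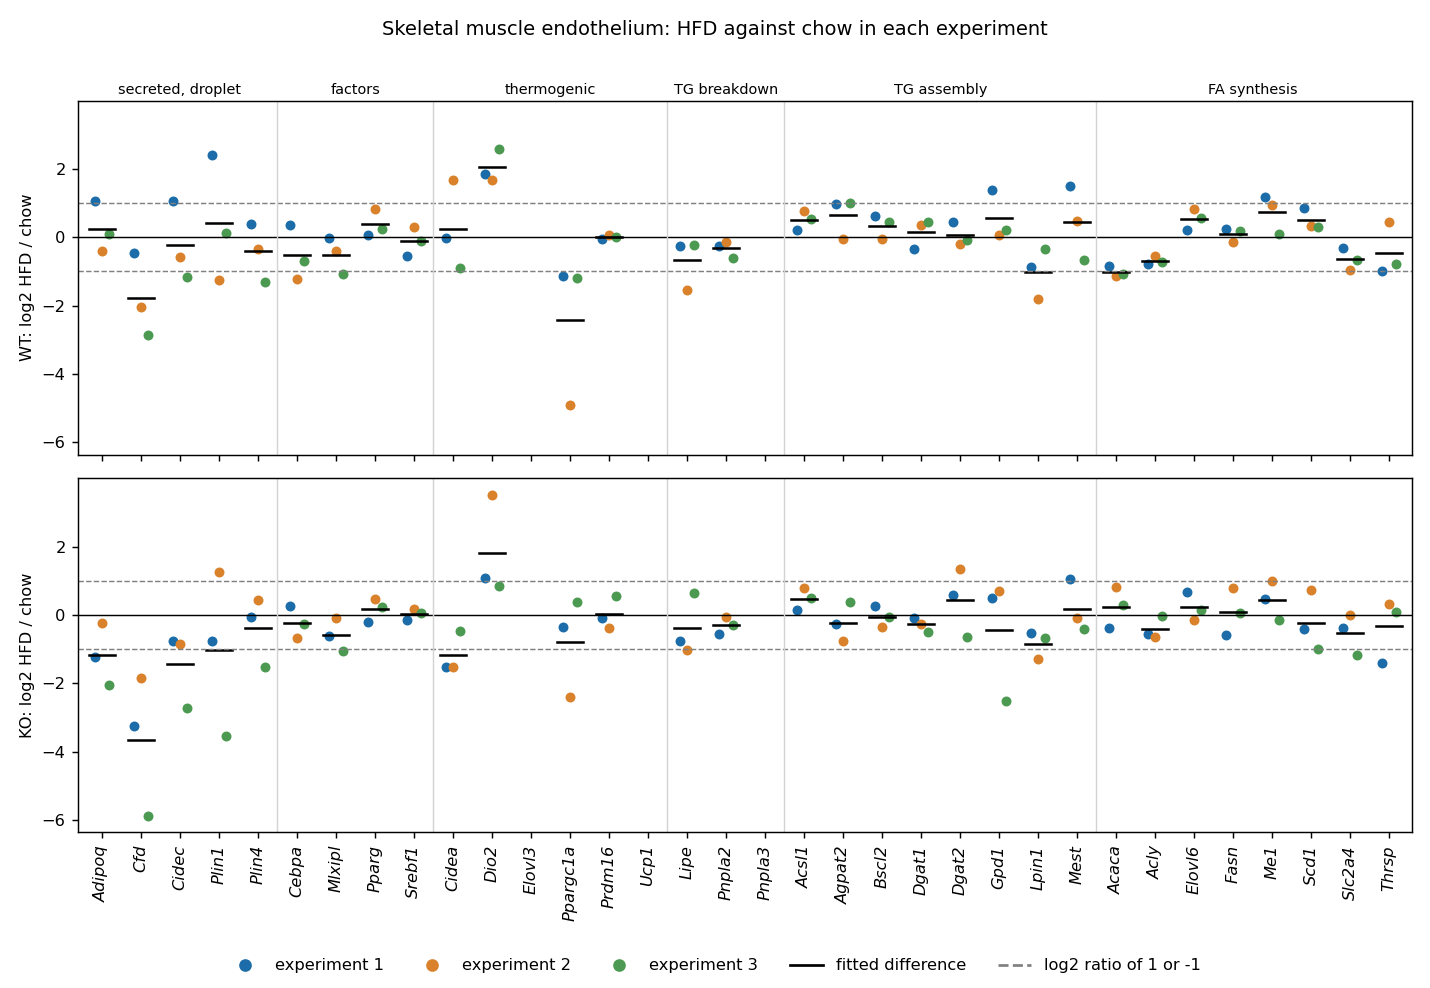
Log2 ratio of HFD to chow in muscle in each experiment (points) and the fitted difference (black lines) by role, with WT above and KO below; genes without points were not measured. Dio2 is above 0 and Cfd below 0 in all 6 pairs, and most other genes lie on both sides of 0.

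By limma, 1 higher and 4 lower genes of 31 had an unadjusted p under 0.05 in WT (5.32% and 6.74% of all probes), 1 higher and 5 lower in KO (3.71% and 4.78%), and 3 higher and 6 lower over both strains (7.28% and 9.1%). Without experiment 1 there were 2 lower in KO, as without experiment 2 or 3, and over both strains 2 higher and 4 lower. In WT, 2 were lower without experiment 3 and 2 higher without experiment 2 or 3. For these fits and for the next test, the share over all probes at the unadjusted threshold was not counted. The methods' t-test had 1 higher and 2 lower in WT and 0 in KO. Neither tool called any of the 31 after adjustment, where over both strains limma called 0.167% of all probes higher and 0.121% lower and in KO 0.00389% lower. KO response minus WT response passed the unadjusted threshold of limma for Acaca (1.27) and Adipoq (-1.41), against 2.21% of all probes higher and 1.91% lower. Neither was called, with a limma adjusted p of 0.999 for both. The other tested probes of Acaca differed by 0.40 and -0.18 in this comparison. On chow, 3 genes were higher in KO muscle without overlap (Thrsp, Agpat2 and Cidec), against 4.44% (lower 3.45%), and on HFD 1 was lower (Bscl2), against 2.62% (higher 2.42%). None of the 31 was called between the strains by limma on either diet. Unadjusted, Adipoq (1.70) and Agpat2 (0.90) were past the threshold on chow, against 1.18% of all probes higher and 1.25% lower, and 0 on HFD, against 1.62% and 1.54%. With the replicate block 5 of the 31 were higher in KO on chow at that threshold, with no share over all probes counted, and 0 were called.

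The diet response of the aorta was then set against that of muscle in a fit over all 24 arrays. Differences are the aortic response minus that of muscle, averaged over the strains. Adipoq differed by -4.33 ± 0.74 (limma, unadjusted p = 0.000126, adjusted p = 0.107), and Acsl1 by -2.11 ± 0.36 (unadjusted p = 0.000135, adjusted p = 0.112). Cidec differed by -2.68 ± 0.56, Plin1 by -2.94 ± 0.87, Dgat2 by -2.01 ± 0.48 and Pparg by -1.45 ± 0.40, with adjusted p of 0.189, 0.340, 0.238 and 0.301. Dio2, higher on HFD in every pair of both tissues, differed by 0.13 ± 0.71, with a 95% interval of -1.43 to 1.69. In this comparison 0 of 34 genes were called, and 10 had an unadjusted p under 0.05 with a lower aortic response and 0 with a higher one, against 3.99% and 5.25% of all probes. The median over the 34 genes was -0.76, against 0, and -0.26 without experiment 1, where 6 in place of 10 had an unadjusted p under 0.05, with no share over all probes counted.

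Levels in the tissues were compared over all arrays of both diets and strains, and here the set differed most. Of 34 genes, 20 were higher in aorta and 7 lower (limma, adjusted p under 0.05), against 16% and 30.1% of all probes, and unadjusted 17.7% and 35.7% of all probes passed. The median of the 34 was 1.35, where that of all probes was -0.27 (-0.01 with the deposited table). All 6 thermogenic genes were called, 5 higher in aorta and Prdm16 lower. Each slide held arrays of 1 tissue, and with the slide as a random block 17 were called higher and 5 lower. Over all probes, 7715 of 27387 were then called in either direction, in place of 12630. Ucp1, Elovl3 and Pnpla3, all called higher, passed the filter through aortic groups alone, so that their calls were in part fixed by it. With the filter on every array, 20 of 27 genes were called, 13 of them higher, against 9600 of 19643 probes called in either direction.

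Ucp1 differed most of the 34 genes. On the 12 aortic arrays it ranged from 0.80 to 4.89 with a median of 2.58, and in muscle from -9.45 to -5.31 with a median of -7.64, where 2 of 12 arrays were well above background. No muscle array came near the aortic range, and the fitted difference of 10.07 ± 0.48 (adjusted p = 4.43e-11) rests on muscle signals mostly at background. Cidea ranged from 0.31 to 6.00 in aorta (median 2.05) and from -5.57 to -0.97 in muscle (median -3.29), and differed by 6.04 ± 0.47 (adjusted p = 1.09e-08). Dio2 ranged from -0.28 to 3.73 in aorta (median 2.57) and from -6.34 to -1.38 in muscle (median -2.76), and differed by 5.42 ± 0.44 (adjusted p = 1.69e-08). For these 3 genes the tissues did not overlap. In all, 7 of the 34 genes were higher without overlap and 1 lower, against 3.45% and 2.06% of all probes.

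Elovl3 was well above background on all 11 aortic arrays kept and on 0 of 12 in muscle, which gives at least 11.2-fold higher in aorta (adjusted p = 4.17e-08, 1 array left out as an outlier). Ppargc1a was higher in aorta by 1.4 ± 0.54 (adjusted p = 0.0416), and by 0.56 (adjusted p = 0.353) without experiment 2, which holds the dim muscle array named above. Its call was also lost without experiment 3 (0.102), with no filter (0.0589) and with the slide block (0.135). Prdm16 went the other way. It ranged from -0.05 to 1.32 in aorta (median 0.72) and from 2.47 to 3.33 in muscle (median 2.78) without overlap, a difference of -2.14 ± 0.17 (adjusted p = 1.69e-08).

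**Figure D4:**
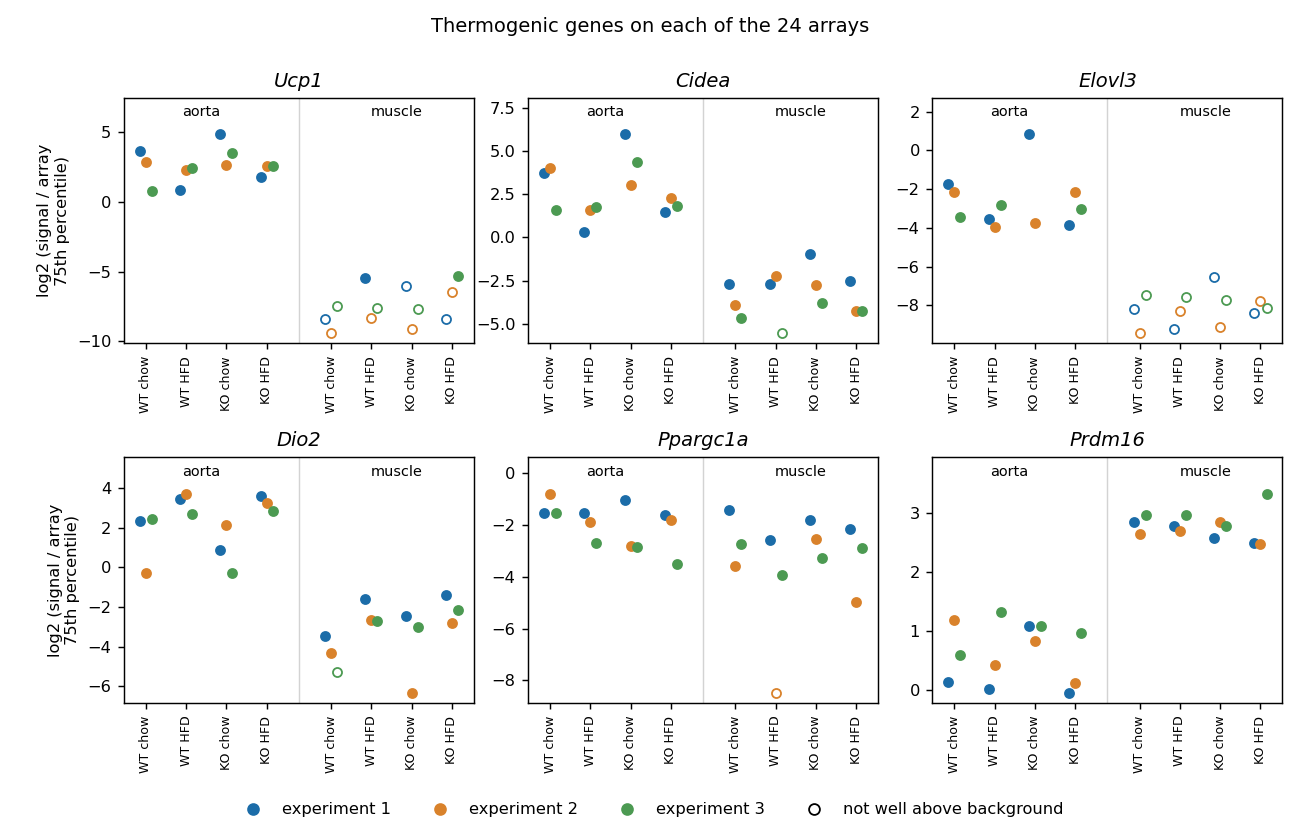
Level (log2 of signal over the array's 75th percentile) of the 6 thermogenic genes on each of the 24 arrays by tissue, strain and diet, with open points where the probe was not well above background. Ucp1, Cidea and Dio2 are higher on every aortic array than on any muscle array, and Prdm16 is lower.

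Droplet and secreted genes were higher in aorta over both diets, with overlap. Plin1 ranged from -2.55 to 3.22 in aorta and from -7.54 to -1.79 in muscle, with medians of -1.05 and -4.38, and differed by 3.74 ± 0.55 (adjusted p = 2.02e-05). The range was 0.76 to 6.45 in aorta and -1.01 to 3.02 in muscle for Cidec, 0.83 to 4.1 and -1.82 to 1.89 for Plin4, -4.39 to 5.48 and -2.22 to 1.34 for Adipoq, and 0.34 to 6.70 and -1.03 to 5.62 for Cfd. The ranges hold both diets of a tissue and overlapped for all 4 genes. Cidec differed by 2.44 ± 0.37, Plin4 by 2.18 ± 0.46, Adipoq by 1.99 ± 0.48 and Cfd by 1.58 ± 0.44, with adjusted p of 2.92e-05, 0.000843, 0.00248 and 0.00641. For Adipoq the difference lay on chow, with group means of 3.07 (WT) and 3.70 (KO) in aorta and -1.62 and 0.08 in muscle, whereas on HFD they were -2.39 and -0.41 in aorta and -1.38 and -1.09 in muscle. Plin4 lost the call without experiment 2 (adjusted p = 0.0632), and Adipoq and Cfd lost the call without experiment 3 (adjusted p = 0.115 and 0.144) and without experiment 2 (0.0649 and 0.116), and Cfd with the slide as a random block (0.0523).

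Enzymes of fatty acid synthesis were divided. Fasn ranged from 2.81 to 6.49 in aorta (median 3.58) and from 0.50 to 2.07 in muscle (median 1.14), Scd1 from 1.92 to 5.66 and from -0.73 to 1.85, and Me1 from -0.26 to 2.14 and from -3.49 to -1.06. For these 3 the tissues did not overlap, and the differences were 2.68 ± 0.29, 2.74 ± 0.37 and 2.97 ± 0.29. Elovl6, which elongates palmitate, was higher by 0.81 ± 0.28, a call lost without experiment 2, without experiment 3 and with the slide block (adjusted p = 0.0994, 0.1 and 0.132). Thrsp ranged from -1.85 to 3.68 in aorta and from 1.99 to 3.94 in muscle, Slc2a4 from -1.38 to 2.62 and from 0.46 to 2.67, and Acly from -2.03 to -0.21 and from -0.57 to 0.50. Thrsp (-2.24 ± 0.33), Slc2a4 (-1.46 ± 0.27) and Acly (-1.36 ± 0.17) were lower in aorta, with adjusted p of 2.23e-05, 0.000203 and 2.81e-06. Acaca, at 0.24 ± 0.32, was not called.

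In triglyceride assembly, Gpd1 (3.47 ± 0.55), Dgat2 (2.49 ± 0.42), Agpat2 (1.48 ± 0.23), which makes phosphatidic acid, and Bscl2 (1.29 ± 0.14) were higher in aorta. Gpd1 ranged from 0.99 to 5.67 in aorta and from -3.05 to 1.74 in muscle, Dgat2 from -0.16 to 4.5 and from -2.32 to 0.52, and Agpat2 from -1.65 to 0.66 and from -2.77 to -0.83. Bscl2 ranged from -0.02 to 1.07 and from -1.14 to -0.24, without overlap. Another probe of Bscl2 differed by -0.42 (limma, adjusted p = 0.415), and the other probe of Gpd1 by 0.75 (adjusted p = 0.0683), so that neither was called. The other probes of Dgat2 differed by 3 (adjusted p = 0.000733) and by 1.19 (adjusted p = 0.103), and that of Agpat2 by 1.51 (adjusted p = 3.5e-05). In breakdown, Pnpla3 was well above background on 9 aortic arrays and 1 muscle array, so that its difference of 2.51 ± 0.49 rests on muscle signals mostly at background, and Lipe and Pnpla2 were lower by 1.46 ± 0.29 and 0.64 ± 0.17. Among the factors, Mlxipl was higher by 1.29 ± 0.37 and Pparg lower by 0.57 ± 0.22. The call of Mlxipl was lost without experiment 2 or 3 (adjusted p = 0.102 and 0.109), and that of Pnpla2 with the deposited table (0.102), without experiment 2 (0.0982) and with the slide block (0.0564). The call of Pparg was lost under 8 of 10 alternatives, with adjusted p of up to 0.299. Acsl1, Dgat1, Lpin1, Mest, Cebpa and Srebf1 were not called, with differences between -0.38 and 0.48. Of 17 further probes of these genes, 10 had the sign of the brightest probe.

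**Figure D5:**
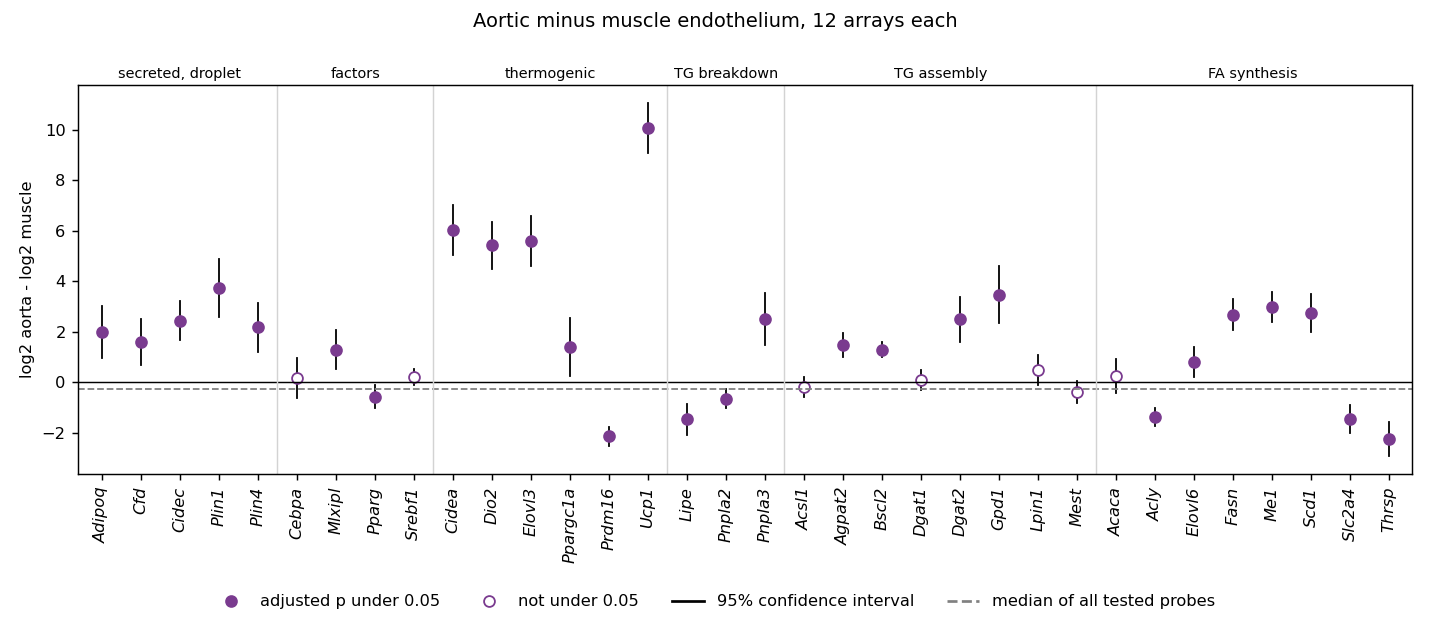
Difference in level between the tissues (log2 aorta minus log2 muscle over 12 arrays each) with its 95% confidence interval, by role, with filled points where the adjusted p was under 0.05. Ucp1, Cidea, Elovl3 and Dio2 stand highest, from 5.42 to 10.07, and Prdm16 and Thrsp lowest, at -2.14 and -2.24.

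Markers of other cells differed between the tissues too. The 12 fibroblast and preadipocyte markers, among them Pdgfra and Dpt, had a summed level of 8.45 to 9.54 in aorta and of 6.97 to 8.31 in muscle, and 8 of 12 were called higher in aorta, by a median of 2.17. Of the 12 endothelial markers, 11 were called lower in aorta, by a median of -1.06, with summed levels of 7.13 to 8.74 and of 8.73 to 9.31. All 10 genes of the skeletal muscle fibre were called lower in aorta, by a median of -6.41. The part of these other cells in the differences above was not tested.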

How the data were processed

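RNA of sorted endothelial pools was read on 24 arrays. Samples were grouped by the tissue, strain and diet of their labels, and the replicate number was taken as the experiment. Per the file headers, the authors' Feature Extraction software (10.5.1.1, named as 9.1 in the labels) subtracted the background to give the processed intensity of each of 45018 spots, with no scaling between arrays. The authors also deposited a log2 table of these values, scaled by the 75th percentile. Pools held 3 mice by the methods and 3 to 4 by the labels.

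Here log2 of the processed intensity over the 75th percentile of the array (2390 to 5938) was taken, spots marked as outliers were dropped, and repeated spots were averaged to 41174 probes. A probe was well above background where at least 0.5 of its spots were. A probe was tested if some group of the tissue had it well above background on all its arrays (25865 in aorta, 25682 in muscle, 27387 over both). Accessions were matched to 18539 symbols of the RefSeq table for GRCm38.p6.

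Diets were compared with limma (version 3.58.1 under R 4.3.3, with the package data.table, version 1.17.8), using a block for each strain and experiment, since the methods take ratios within experiments and all 4 groups of a tissue and experiment shared a slide. The deviations of paired arrays correlated at 0.01 to 0.46. Experiment 1 was scanned in a session of its own. Strains and tissues were compared on group means, with a replicate block as an alternative. p-values were adjusted over all tested probes (Benjamini-Hochberg, called under 0.05), and intervals are 95%. The methods' t-test, a 1-sample or unpaired test on the 3 ratios, was run on the same values. The scripts were tested on simulated data. The number of arrays limits the precision, and p-values measure the spread between pools.

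Alternatives were normexp background (offset 50, on median signals, as the files hold no mean signals), quantile normalization, the deposited table, no filter, a filter on every array, each experiment left out, other blocks and a threshold of 0.75. Per array values were given for genes called in a contrast or past 1 in all 3 experiments, and ranges for tissues. Among genes that did not qualify, Pparg, Cidea, Slc2a4, Adipoq in muscle, Lpin1 and Acsl1 in muscle were given after their values were seen. The 36 genes, the further gene lists and the markers were chosen with earlier results of these data known. The authors' fold changes were not used.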

Additional observations from a re-analysis of the deposited data

Results flagged for a closer look

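The response of Acsl1 to HFD went in opposite directions in the tissues in every experiment. In WT its ratios were -1.35, -1.47 and -1.16 in aorta and 0.21, 0.76 and 0.54 in muscle, so that the mean in muscle was higher by 1.83. In KO they were -3.30, -1.23 and -1.23 in aorta and 0.14, 0.79 and 0.48 in muscle, higher by 2.39. Scd1 did the same in WT, with -0.93, -1.63 and -1.02 in aorta and 0.84, 0.32 and 0.30 in muscle, a difference of 1.68. These differences within a strain were not tested. Over both strains, the aortic response minus that of muscle was -2.11 ± 0.36 for Acsl1 and -1.54 ± 0.47 for Scd1 (limma, adjusted p = 0.112 and 0.360). The other probes of Acsl1 differed by -0.07 and -0.05 in WT muscle and by -0.47 and -0.33 in KO muscle, so that the positive muscle ratios belong to its brightest probe, while over both strains the tissue difference was -1.69 and -1.74 on them.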

How the results depend on the processing

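In aorta, the 7 genes past 1 in all 3 experiments kept their direction in each strain and over both strains under all alternatives run. On the brightest probes and over both strains, 0 were called lower in the main setting and 4 (Adipoq, Cfd, Cidec and Plin1) under the normexp background, the filter on every array and with no replicate block. The replicate block changed no other call of members on diet, and with it 26 of 34 were called between tissues in place of 27. Over all probes, 15645 of 27387 were then called between tissues, in place of 12630. For muscle over both strains, 1 member was called higher (Dio2) and 1 lower (Cfd) under normexp and 1 lower under the filter on every array, and for the diet response between tissues 2 lower (Adipoq and Acsl1) under that filter. The filter on every array also left 13 called higher in aorta than in muscle in place of 20 and a median of 0.48 in place of 1.35, with fewer genes tested. Past 1 in all experiments left, with 1 experiment out, the counts ranged from 5 to 11 (WT aorta lower), 0 to 1 (WT aorta higher), 6 to 11 (KO aorta lower), 1 to 3 (WT muscle lower), 1 to 2 (KO muscle lower) and 0 to 1 (KO muscle higher). Over all probes the shares, in the same order, were 2.42% to 4.12%, 2.15% to 3.21% and 3.17% to 5.02% in aorta. In muscle they were 1.84% to 4.36%, 1.31% to 2.8% and 1.38% to 2.93%. All of these shares are higher than with every experiment kept. In KO aorta 0 were higher under quantile normalization (main 1), in WT muscle 0 and 0 under the filter on every array, and at a threshold of 0.75, 2 were lower in WT muscle and 1 higher and 2 lower in KO muscle. At that threshold 1.94% of all probes were lower in WT muscle, and 0.911% were higher and 1.09% lower in KO muscle. The WT muscle median ranged from -0.14 to 0.05 with 1 experiment out, and the member calls between tissues from 14 to 20 higher and from 5 to 6 lower. Without experiments 1, 2 and 3, 8775 of 28602, 8561 of 28710 and 9846 of 29618 probes were called between tissues in either direction. Reversed were the difference in response between tissues of Dio2 (-0.04 without experiment 1, range with 1 out to 0.22, main 0.13) and of Ppargc1a (-0.02 without experiment 2, to 2.03, main 1.19), and the response of Ppargc1a in KO muscle (0.02 without experiment 2, to -1.38, main -0.79). On the other probe of Ppargc1a the difference in response between tissues was -1.13. Over all probes, 8 were called on diet in aorta over both strains, 55 under normexp, 41 under the filter on every array and 50 without the block; in muscle 74, with 221, 247 and, with no filter, 1. The cause of these shifts was not tested. Groups of 3 arrays cannot show small differences, and genes near background have levels only as bounds.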

Other observations

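Further genes of the same pathways were read from lists of other adipocyte, lipogenic, thermogenic and regulatory genes. Of 26 other adipocyte and lipid storage genes measured in aorta, 5 in WT were below -1 in all 3 experiments (Retn, Adig, Acvr1c, Apoc1 and Hp) and 6 in KO, the same 5 and Lgals12, against 0.858% and 1.12% of all probes, and 0 were above 1. Retn, the adipokine resistin, differed by -4.74 ± 0.93 in WT and -4.84 ± 0.93 in KO, and Hp, the haemoglobin scavenger haptoglobin that fat also secretes, by -2.58 ± 0.56 and -2.19 ± 0.56, with none of these called by limma. Fabp4, Cd36 and Lpl, lipid-handling genes that adipocytes and endothelial cells share, differed by -0.01 ± 0.31, -0.35 ± 0.40 and -0.52 ± 0.43 in WT and by -0.21 ± 0.31, -0.76 ± 0.40 and -0.74 ± 0.43 in KO. They were chosen after their values were seen. Of 15 other lipogenic genes, 0 in WT and 1 in KO (Insig1, -1.89 ± 0.38) were below -1 in all 3 experiments, of 17 other thermogenic genes 0 and 1 (Slc27a2, -4.70 ± 1.64), and of 16 other regulators of adipogenesis 0 in either strain. In muscle 1 other lipogenic gene (Aacs) was above 1 in WT, against 0.872%. Between the tissues, 7 of 18 other thermogenic genes were called higher in aorta and 3 lower (Clic5, Esrra and Ucp2), against 16% and 30.1% of all probes. Of this list 17 genes passed the filter in aorta and 15 in muscle, so that some of these calls could be in part fixed by it. Lhx8, a mark of brown fat, was higher in aorta by 5.21 ± 0.44 (limma, adjusted p = 2.64e-08), and Ebf2, a factor of brown preadipocytes that is also on the fibroblast list, by 1.38 ± 0.37 (adjusted p = 0.00552), both chosen after their values were seen.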
